A study of Apostichopus japonicus with 12 samples.

Results

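Transcripts for oxidative phosphorylation were followed through 76 nuclear gene models in the sea cucumber (Apostichopus japonicus) intestine. They were taken from the 26461 models of the deposited expression table by their Swiss-Prot names: every model outside the scaffold of the mitochondrial genome (Scaffold6) whose name held NADH dehydrogenase [ubiquinone], NADH-ubiquinone oxidoreductase, Cytochrome b-c1, Cytochrome c1, Cytochrome c oxidase or ATP synthase. The choice used names only and no expression value. By name, 61 of the models were subunits of the enzymes, with 34 in complex I, 7 in complex III, 10 in complex IV and 10 in complex V, and 15 were assembly or accessory proteins. Each name belongs to the closest Swiss-Prot match, which comes from another species. Sea cucumbers of around 100 g were kept for 6 h in 1 of 4 conditions, and RNA was extracted from the intestine of each animal, with 3 libraries in each group. Per the labels, control animals stayed at 18 °C. High temperature animals had water of 26 °C with 7 mg/L of dissolved oxygen, low oxygen animals had 18 °C with 3 mg/L, reached by bubbling nitrogen, and combined animals had both 26 °C and 3 mg/L. Dissolved oxygen in the control is in doubt, because the series text states 3 mg/L there too, and groups were used as labelled. Nothing tells whether animals of 1 group shared a tank, so p-values measure only the spread between these samples.

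Oxidative phosphorylation takes place in the inner mitochondrial membrane. Complex I takes electrons from NADH through a peripheral arm of flavin and iron-sulfur subunits and pumps protons through its membrane arm. Complex III passes electrons to cytochrome c, complex IV passes them to oxygen, and complex V, the ATP synthase, uses the proton gradient to make ATP. Most subunits are encoded in the nucleus and imported, while a few hydrophobic core subunits are encoded in the mitochondrial genome, so that both genomes supply parts of the same enzymes. Oxygen is consumed at complex IV, and the assembly proteins deliver copper, heme and folded subunits to the growing complexes.

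Each library held between 8146906 and 10855050 assigned fragments. Levels are in FPKM, the fragments of a model divided by its length and by library size, and the authors' library sizes were already scaled between libraries. Combined replicates 1 and 3 stood apart: their scaled library size was 0.529 and 0.526 of the library total, against 0.935 to 1.58 in the other 10 libraries, so each fragment counted for more FPKM there. Rescaling all libraries to equal totals moved the median difference of all genes from -0.05 to -0.63 (log2) for the combined group against control, from -0.01 to -0.59 against high temperature and from -0.02 to -0.64 against low oxygen. The direction of many gene groups in the combined samples depended on it. Trypsin, lipase, amylase and related digestive names, the markers of intestinal digestive cells, matched 46 models, of which 45 had fragments, with a summed level between 119 and 1495 FPKM. The words also caught neurotrypsin and inter-alpha-trypsin inhibitors, which are not digestive enzymes. In bulk tissue, fewer cells of a type and less RNA per cell cannot be told apart.

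The nuclear subunits were among the more abundant transcripts of the intestine. Per length, the median over models of the mean FPKM over 12 libraries was 169 for complex IV, 119.6 for complex V, 78.6 for complex III and 23.3 for complex I, against 4.12 over the 15615 genes tested. The assembly and accessory proteins had a median of 3.23 FPKM, below that of all genes tested. Within complex I the peripheral arm (18 models) and the membrane arm (16 models) had medians of 28.2 and 22.6 FPKM. Of the 1000 most abundant models, 31 were subunits, including 9 of the 10 of complex IV and none of the assembly proteins.

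The most abundant models of complex IV were COX6C, COX6A and COX7C, 3 small nuclear subunits that surround its catalytic core, and COX6A ranged from 143 to 579.6 FPKM and COX7C from 103 to 637 FPKM over the 12 libraries. In complex V they were ATP5F1A and ATPB, the alpha and beta subunits of the catalytic head (174 to 423 and 137 to 303 FPKM), and ATP5MC3, a copy of the subunit that forms the rotor ring (167 to 348 FPKM). In complex III they were the small subunits UQCRQ (66.2 to 381 FPKM), UQCR10 (32.1 to 316 FPKM) and UQCR11 (26.3 to 172 FPKM). In complex I they were NDUFB2 and NDUFB5 of the membrane arm and NDUFS7, an iron-sulfur subunit of the peripheral arm (35.3 to 104 FPKM). NDUFB5 ranged from 27.8 to 115 FPKM. The most abundant assembly gene was COX17, the copper chaperone of complex IV, with 4.17 to 40.5 FPKM. COX17 and UQCR10 have models of only 195 and 201 bases, shorter than the library fragments described in the labels, so their levels per length are less certain.

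The models lay on 20 chromosomes, with 2 to 17 exons in the 71 that stand in the deposited annotation. No source used here names the genome build, and coordinates come from the deposited table. NDUFB2 was present as model Chr18_486 on the minus strand of chr18:17108623-17112444 (4 exons) and as model Chr18_635 on the minus strand of chr18:21416069-21425554 (4 exons). COX7A1, a small subunit of complex IV on the minus strand of chr2:19080969-19084279, and COX7A2L, which in mammals joins complexes III and IV into supercomplexes, on the plus strand of chr2:19084295-19088392, lay head to head with starts 16 bases apart. COX4I1, another complex IV subunit (minus strand, chr9:5421499-5425899), and CYC1, the cytochrome c1 of complex III (plus strand, chr9:5429861-5439783), were also head to head, 3962 bases apart. Of the 76 members, 7 overlapped a model on the opposite strand: NDUFS5, NDUFB3, NDUFA11, NDUFB6, COX18, COA5 and COA7-B. No strand-marking step is named in the protocols, so their reads cannot be told apart from those of the overlapping model.

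**Figure D1:**
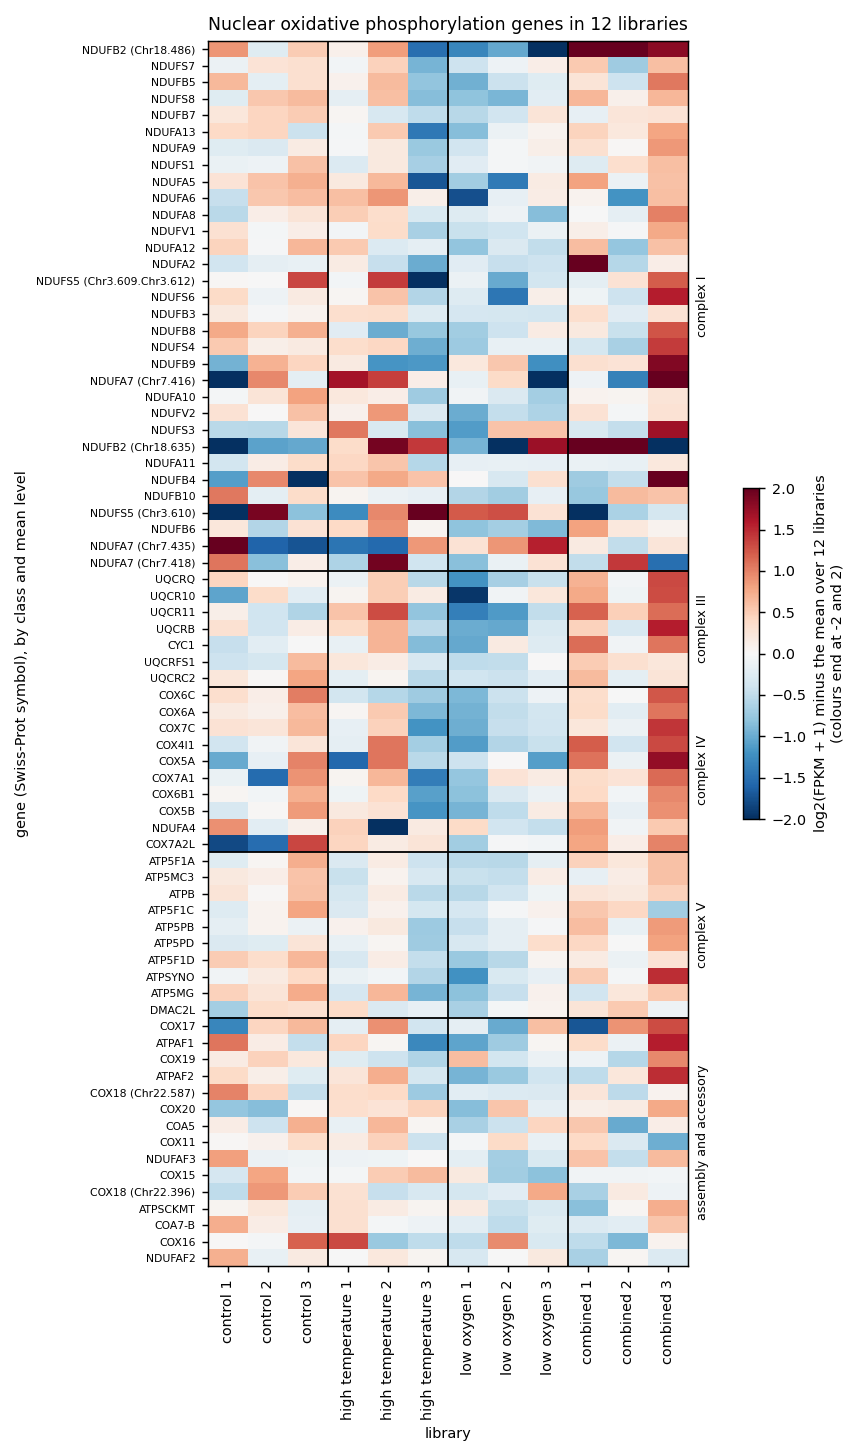
Each row is 1 of 74 models, out of the 75 that passed the filter on low values, and each column 1 of the 12 libraries; colour is log2(FPKM + 1) minus the mean of the gene over all libraries, with classes separated by horizontal lines and groups by vertical lines. The low oxygen columns are mostly blue, high temperature replicate 3 is blue and combined replicate 3 is red through complexes I, III, IV and V, while the assembly class shows less of this pattern.

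In low oxygen, nuclear subunit transcripts were lower than in the control across all 4 complexes, although no single gene passed the test. Tests used limma on log2(FPKM + 1) over the 15615 genes with at least 1 FPKM in at least 3 libraries, fitted to all 12 libraries, with Benjamini-Hochberg adjustment and a threshold of 0.05. Of the 76 members, 75 passed this filter. Limma called 0 of 75 members, and 0.0064% of all genes tested, in low oxygen against control; limma with voom weights on the recovered fragments also called 0 members. Without adjustment 6 members had a p under 0.05, all lower in low oxygen, as did 4.06% of all genes. All 3 low oxygen libraries lay below all 3 controls for 26 of 75 members (34.7%), against 8.66% of all genes tested. They lay above all controls for 0 of 75, against 7.58% of all genes. The median difference over the members was -0.45 (log2) and 64 of 75 members were lower, against 49.2% of all genes, whose median was 0.01. With libraries rescaled to equal totals the median was -0.39 and 23 members lay below all controls, against 7.65% of all genes.

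The lower values ran through every class. The median log2 difference from the control was -0.69 in complex III (7 of 7 lower), -0.63 in complex IV (8 of 10), -0.58 in complex V (9 of 10) and -0.43 in complex I (26 of 33). It was -0.34 among the assembly proteins, with 14 of 15 lower. Of the 10 complex IV subunits, 5 had all low oxygen libraries below all controls. Summed over the 61 subunits, the controls held 4520, 4427 and 6322 FPKM and the low oxygen libraries 2673, 3380 and 3923 FPKM, so the groups did not overlap. As a share of all fragments, subunits made up 0.548%, 0.699% and 1.09% in the controls and 0.458%, 0.565% and 0.573% in low oxygen, where the highest low oxygen library lay above the lowest control.

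UQCRQ, a small subunit of complex III, had 205, 154 and 160.1 FPKM in the controls and 66.2, 95.2 and 112 FPKM in low oxygen. Its groups did not overlap, and the log2 difference was -0.94 (SE 0.43, limma adjusted p = 0.791). COX6C, the most abundant subunit of complex IV, had 364, 315 and 587 FPKM in the controls and 153, 213 and 268 FPKM in low oxygen. Again every low oxygen value lay below every control value, with a log2 difference of -0.98 (SE 0.42, limma adjusted p = 0.771). ATP5F1D, the delta subunit in the rotor stalk of the ATP synthase, had 125, 111 and 139 FPKM in the controls and 51.6, 59.2 and 90.8 FPKM in low oxygen. This difference was -0.92 (SE 0.34, limma adjusted p = 0.720), without overlap.

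Among the complex I genes, NDUFB2 model Chr18_486 had the smallest p, with a difference of -2.63 (SE 0.81, limma adjusted p = 0.607), and its values are given with its second model below. NDUFB3, an accessory subunit of the membrane arm that was named here after its values were seen, had 27.0, 23.0 and 24.7 FPKM in the controls and 18.3, 18.2 and 17.9 FPKM in low oxygen, the smallest spread within groups of any member (SD 0.24 on the log2 scale). Its groups did not overlap. NDUFB3 lies across a model on the opposite strand, so its reads cannot be told apart from those of that model. In the assembly class the smallest p belonged to ATPAF2, a chaperone for the head of the ATP synthase, with 8.33, 6.83 and 5.09 FPKM in the controls and 2.76, 3.29 and 4.46 FPKM in low oxygen. Its difference was -0.78 (SE 0.49, limma adjusted p = 0.828), and the groups did not overlap.

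Markers of other cell types were compared for the same groups. Models named for cilia and flagella proteins summed to between 119.9 and 216 FPKM in the controls and to between 209.5 and 306 FPKM in low oxygen, with 52 of 58 tested models higher in low oxygen (50.8% of all genes) and 12 of 58 above all controls (7.58%). Muscle markers (7 models) summed to 118 to 239 and 162 to 235 FPKM, connective tissue markers (12 models) to 661 to 744 and 446 to 694 FPKM, and digestive markers to 179.6 to 1495 and 205 to 303 FPKM, in control and low oxygen respectively. No model of the first 3 lists was at 0 in all libraries. The part of these cell types in the lower subunit values was not tested.

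**Figure D2:**
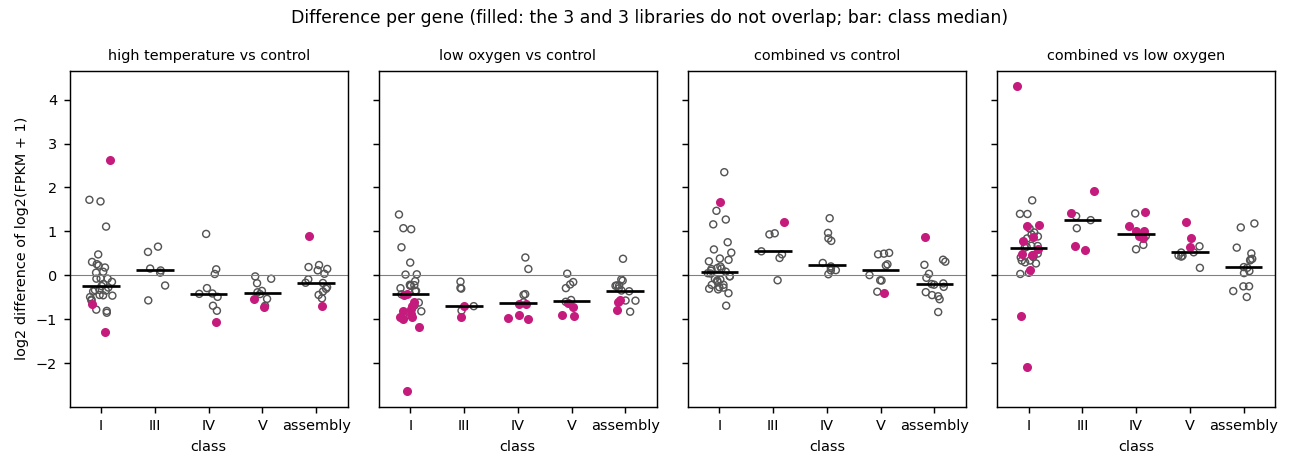
Log2 differences of log2(FPKM + 1) per gene by class for 4 comparisons; filled points are genes whose 3 and 3 libraries do not overlap, open points the others, and bars class medians. In low oxygen against control the class medians lie between -0.69 and -0.34 and every filled point is below 0, whereas in combined against low oxygen the medians lie between 0.19 and 1.26.

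High temperature alone gave no common direction. Limma, with and without voom weights, called 0 of 75 members at 26 °C against control, and 0.0704% of all genes, and 2 members had an unadjusted p under 0.05, both lower, against 4.2% of all genes. High temperature libraries lay below all controls for 6 of 75 members and above them for 2 of 75, against 7.24% and 6.87% of all genes. The median member difference was -0.24 (log2), with 50 of 75 lower (50.4% of all genes). It was 0.06 without high temperature replicate 3, the library in which 21 of 75 members had their lowest value (6.61% of all genes). Complex V had 10 of 10 subunits lower, with a median of -0.40 and 2 subunits without overlap, and complex IV a median of -0.41, while complex III had a median of 0.11.

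Markers of ciliated cells were higher in high temperature, with sums of 263 to 410 FPKM against 119.9 to 216 FPKM in the controls. Of 58 tested models 55 were higher (49.6% of all genes) and 29 lay above all controls (6.87%), with a median difference of 0.63 (log2). Limma called 0 of 58, against 0.0704% of all genes. At an unadjusted p under 0.05 there were 5 of 58, all higher, against 371 of all 15615 genes. Muscle markers summed to 169 to 224 FPKM, connective tissue markers to 452 to 759 FPKM and digestive markers to 119 to 279.5 FPKM in high temperature, each overlapping the control range given above. The part of these cell types in the subunit values was not tested.

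NDUFB8, an accessory subunit of the membrane arm of complex I, had the smallest p, with 34.9, 27.9 and 33.8 FPKM in the controls and 17.1, 9.73 and 11.6 FPKM in high temperature. Those groups did not overlap, and the log2 difference was -1.29 (SE 0.44, limma adjusted p = 0.542). COX6C had 221, 192 and 176 FPKM in high temperature, all below the controls, a difference of -1.05 (SE 0.42, limma adjusted p = 0.646). ATP5F1D had 69.9, 96.8 and 62.1 FPKM, also all below the controls, a difference of -0.72 (SE 0.34, limma adjusted p = 0.758). The low oxygen and the high temperature comparisons share these 3 control libraries, so low values in both are not independent of each other.

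UQCRC2, a core protein of complex III, had 43.3, 37.5 and 64.4 FPKM in the controls and 32.2, 38.5 and 25.1 FPKM in high temperature, with overlapping groups and a difference of -0.57 (SE 0.35, limma adjusted p = 0.855). COX20, a chaperone that helps to mature a core subunit of complex IV, had higher values in high temperature, with 2.64, 2.42 and 5.28 FPKM in the controls and 6.83, 6.53 and 7.44 FPKM in high temperature. Its groups did not overlap on the deposited scale, with a difference of 0.89 (SE 0.42, limma adjusted p = 0.755), and its model is short, at 285 bases. The model held 6, 9 and 20 fragments in the controls and 18, 19 and 33 in high temperature. As a share of all fragments the groups overlapped.

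The combined group against the low oxygen group shows warming in low oxygen water. On the deposited scale, NDUFB2 rose and most other subunit transcripts were higher in the combined group. Limma called 1 of 75 members, against 0.423% of all genes, and that member was NDUFB2. Without adjustment 15 members had a p under 0.05, all higher, against 6.3% of all genes. On this scale the combined libraries lay above all low oxygen libraries for 22 of 75 members (29.3%), against 7.71% of all genes, and below them for 2 of 75, against 7.86%. The median member difference was 0.63 (log2) with 69 of 75 higher, against 48.7% of all genes, whose median was -0.02. With libraries rescaled to equal totals the members' median was -0.27 and that of all genes -0.64, so the members stood 0.37 above the median gene rather than 0.66. Without combined replicates 1 and 3 the members' median was 0.34. After rescaling, 3 of 75 members lay above all low oxygen libraries (1.59% of all genes did) and 12 of 75 below them (26.9%). With combined replicate 2 as the only combined library, it lay above all low oxygen libraries for 33 of 75 members (44.0%), against 25.3% of all genes, and below them for 10 of 75, against 25.6%.

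By class the median differences between the combined and the low oxygen group were 1.26 in complex III, 0.95 in complex IV, 0.63 in complex I and 0.52 in complex V, and each subunit of complexes III, IV and V was higher. The assembly class had a median of 0.19, with 11 of 15 higher and 0 of 15 without overlap. Of the complex IV subunits 6 of 10, and of the complex III subunits 4 of 7, had combined libraries above all low oxygen libraries. UQCR11, a small subunit of complex III, had 26.3, 31.0 and 49.1 FPKM in low oxygen and 158, 97.0 and 152 FPKM in the combined group, without overlap and with a difference of 1.92 (SE 0.50, limma adjusted p = 0.196). All of these directions are those of the deposited scale. By share of all fragments the assembly class was lower, with 0.00567% to 0.00837% in the combined group and 0.0101% to 0.0111% in low oxygen. By the same share, the combined and low oxygen libraries overlapped in every complex. Combined against low oxygen, the shares were 0.103% to 0.118% against 0.113% to 0.137% in complex I and 0.0464% to 0.0527% against 0.0350% to 0.0506% in complex III. They were 0.114% to 0.166% against 0.105% to 0.144% in complex IV and 0.152% to 0.240% against 0.204% to 0.264% in complex V. Muscle markers summed to 261 to 380 FPKM in the combined libraries against 162 to 235 FPKM in low oxygen, connective tissue markers to 957 to 1107 against 446 to 694 FPKM, and cilia markers to 216 to 1299 against 209.5 to 306 FPKM. Digestive markers summed to 142 to 816 against 205 to 303 FPKM. As a share of all fragments the groups overlapped, with 0.151% to 0.242% against 0.174% to 0.263% for muscle, 0.37% to 0.593% against 0.333% to 0.601% for connective tissue, 0.0648% to 0.236% against 0.112% to 0.133% for cilia and 0.0201% to 0.139% against 0.0708% to 0.111% for digestive markers. Their part in the subunit values was not tested.

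NDUFB2, an accessory subunit of the membrane arm of complex I, rose in the combined group over low oxygen. Its model Chr18_486 had 90.2, 41.0 and 69.7 FPKM in the controls, 52.3, 88.2 and 16.5 FPKM in high temperature, 19.1, 23.5 and 1.31 FPKM in low oxygen and 208, 243 and 173 FPKM in the combined group. On the deposited scale the combined libraries lay above the other 9, and low oxygen replicate 3 was the lowest of all. For this model combined replicate 3 held 356 of 9152522 fragments. Control replicate 3 held 397 of 9714005 and high temperature replicate 2 held 385 of 9516966, so both had a larger share. Between the combined and the low oxygen group the log2 difference was 4.31 (SE 0.81, limma adjusted p = 0.0406).

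The second model, Chr18_635, had 0.924, 3.02 and 3.14 FPKM in the controls, 9.83, 30.6 and 21.3 FPKM in high temperature, 3.40, 0 and 26.5 FPKM in low oxygen, and 62.4, 43.1 and 0.51 FPKM in the combined group. Animals of the same group differed in which model carried the reads: Chr18_635 held 95.3% of the NDUFB2 level in low oxygen replicate 3 and 56.3% in high temperature replicate 3, whereas Chr18_486 held between 74.2% and 100.0% in the other 10 libraries. Sequences of both models were not compared. No source used here tells how reads that match both would be assigned, and the split between the models is uncertain.

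Summing both models removed most of the spread within low oxygen. The summed NDUFB2 level was 91.2, 44.1 and 72.9 FPKM in the controls, 62.1, 119 and 37.8 FPKM in high temperature, 22.5, 23.5 and 27.8 FPKM in low oxygen, and 270.3, 286 and 173 FPKM in the combined group. Means were 69.4 ± 23.7 (SD, n = 3), 72.9 ± 41.5, 24.6 ± 2.85 and 243 ± 61.3 FPKM, in that order. On the deposited scale every low oxygen library lay below the other 9 libraries and every combined library above them. As a share of all fragments, combined replicate 3 lay below control replicate 3 and high temperature replicate 2. In a fit with the models of each duplicated member summed, a choice made after the data were seen, the difference between the combined and the low oxygen group was 3.23 (SE 0.45, limma adjusted p = 0.00488).

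For the single model Chr18_486 the call was lost under most alternatives. Its adjusted p was 0.0697 with a pseudocount of 0.1, 0.101 without a filter, 0.0624 with voom, 0.157 with library weights, 0.19 with only the groups compared and 0.327 without combined replicates 1 and 3. With libraries rescaled to equal totals it was 0.136, with a difference of 3.38. For the summed models the difference stayed between 3.09 and 3.45 with each of the 12 libraries left out in turn, with adjusted p between 0.00282 and 0.0357. Without combined replicates 1 and 3 it was 3.49 (limma adjusted p = 0.0422), and with rescaling to equal totals 2.27 (limma adjusted p = 0.0965), which no longer passed. Against the control, the summed level differed by -1.40 in low oxygen (SE 0.45, limma adjusted p = 0.618) and by 1.82 in the combined group (SE 0.45, limma adjusted p = 0.101), and neither passed the test.

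**Figure D3:**
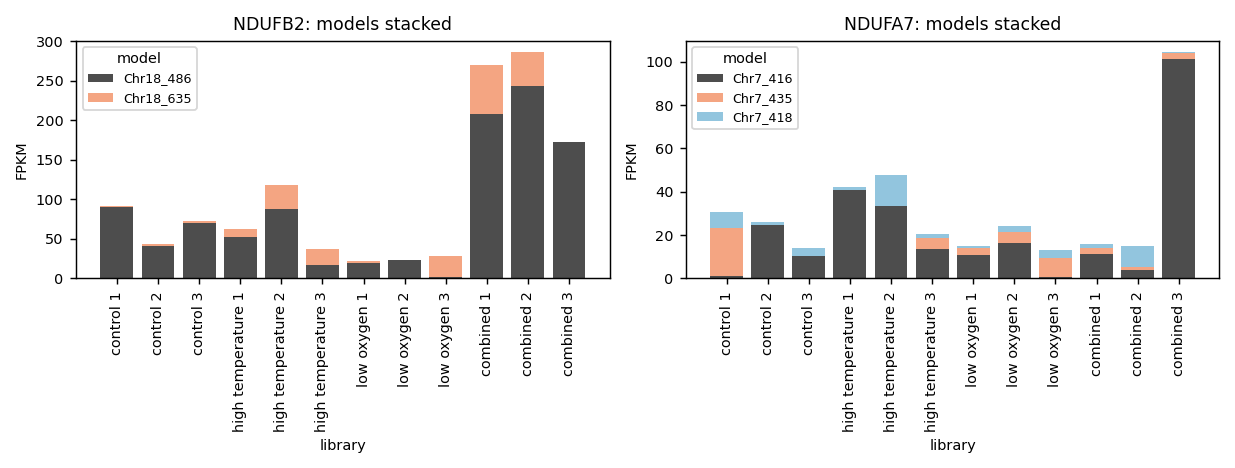
Stacked bars give the FPKM of each gene model of NDUFB2 (left) and NDUFA7 (right) in the 12 libraries. The NDUFB2 stacks reach 22.5 to 27.8 FPKM in low oxygen and 173 to 286 FPKM in the combined group, and in both genes a different model makes up most of the stack in some libraries.

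Other names were also carried by several models. NDUFA7, an accessory subunit of the peripheral arm, had 3 models on chromosome 7: Chr7_416 was the highest in 9 of the 12 libraries, Chr7_435 in control replicate 1 (73.1% of the summed level) and low oxygen replicate 3 (65.5%), and Chr7_418 in combined replicate 2 (63.6%). The summed NDUFA7 level was 23.6 ± 8.67 FPKM in the controls, 36.9 ± 14.4 in high temperature, 17.5 ± 5.71 in low oxygen and 45.2 ± 51.4 in the combined group, where combined replicate 3 alone reached 104 FPKM. The ranges of all 4 groups overlapped.

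NDUFS5, another accessory subunit, was annotated as a merged model with the short model Chr3_610 (258 bases) nested inside it. Chr3_610 held 89.3% of the summed level in high temperature replicate 3, and 0 FPKM in control replicate 1 and in combined replicate 1. COX18, which inserts a core subunit of complex IV into the membrane, had models with 3.49 to 13.8 and 0.833 to 4.24 FPKM. In the fit with models summed, none of NDUFA7, NDUFS5 and COX18 passed the test in any comparison.

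The combined group showed no common shift against the control on the deposited scale. Limma, with and without voom weights, called 0 of 75 members, against 0.788% of all genes, and 1 member had an unadjusted p under 0.05 and a higher level, against 6.65% of all genes. Combined libraries lay above all controls for 3 of 75 members and below them for 1 of 75, against 6.36% and 8.06% of all genes. The median member difference was 0.12 (log2), 0.17 above the median gene, and with libraries rescaled to equal totals it was -0.72, which was 0.08 below the median gene. Without combined replicates 1 and 3 it was -0.20. With rescaling 23 of 75 members lay below all controls, against 23.1% of all genes. As a share of all fragments, the subunits made up 0.415% to 0.522% in the combined group and 0.548% to 1.09% in the controls, without overlap. Against high temperature, limma with and without voom weights called 0 of 75 members (0.218% of all genes), and 4 had an unadjusted p under 0.05, all higher, against 3.87% of all genes. Of the members 7 of 75 lay above all high temperature libraries and 1 of 75 below, against 4.97% and 4.53% of all genes. That median was 0.35, was 0.072 without combined replicates 1 and 3, and turned to -0.48 with rescaling, when 0 of 75 lay above and 17 of 75 below all high temperature libraries, against 1.18% and 18.3% of all genes.

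UQCR11 had the smallest unadjusted p of the members against control, with 75.1, 52.3 and 45.2 FPKM in the controls, no overlap and a difference of 1.22 (SE 0.50, limma adjusted p = 0.311). COX7A2L had 4.19, 5.31 and 44.8 FPKM in the controls and 30.3, 18.9 and 35.1 FPKM in the combined group, a difference of 1.30 (SE 0.66, limma adjusted p = 0.413). Control replicate 3 was above all combined libraries, and without it COX7A2L passed the test, with a difference of 2.30 and a limma adjusted p of 0.0379. Its head-to-head neighbour COX7A1 had 129.7, 48.5 and 266 FPKM in the controls, again highest in replicate 3. ATP5PB, of the stator stalk of the ATP synthase, had 116, 139 and 122 FPKM in the controls and 202, 119 and 238 FPKM in the combined group, a difference of 0.51 (SE 0.38, limma adjusted p = 0.574) that was -0.38 with rescaling to equal totals. COX20 had 5.70, 5.93 and 9.47 FPKM in the combined group, above all controls on the deposited scale, with a difference of 0.88 (SE 0.42, limma adjusted p = 0.379). These values rest on 8, 16 and 13 fragments, and by share of all fragments the groups overlapped.

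The interaction, the effect of warming in low oxygen minus its effect at the other oxygen level, asks whether both changes add on the log2 scale. Limma with and without voom weights called 0 of 75 members, against 0.0512% of all genes, while 13 of 75 had an unadjusted p under 0.05, all positive, against 4.12% of all genes. The median over members was 0.85 (log2), with 64 of 75 positive (50.2% of all genes), and it was 1.37 in complex IV, 1.15 in complex III, 1.08 in complex V, 0.81 in complex I and 0.17 in the assembly class. With each library left out in turn the member median stayed between 0.64 and 1.03, and without combined replicates 1 and 3 it was 0.52. With rescaling to equal totals it was -0.042, which was 0.59 above the median gene, against 0.84 above it on the deposited scale. COX6C had an interaction of 2.06 (SE 0.59, limma adjusted p = 0.551) and NDUFB8 1.95 (SE 0.63, limma adjusted p = 0.635), both on the deposited scale. Each had the smallest p of its class in high temperature against control and was lower there. That difference is subtracted in the interaction, so the positive values of these 2 genes were partly set by the choice. Over both oxygen levels, 26 °C against 18 °C gave a median of 0.18, which turned to -0.25 with rescaling and to -0.008 without combined replicates 1 and 3. Over both temperatures the 2 low oxygen groups against the others gave -0.07, and -0.45 with rescaling. In these 2 comparisons limma called 0 of 75 members (0.455% and 0.0704% of all genes), with 5 and 0 members at an unadjusted p under 0.05 (11.5% and 7.33% of all genes), and voom also called 0.

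**Figure D4:**
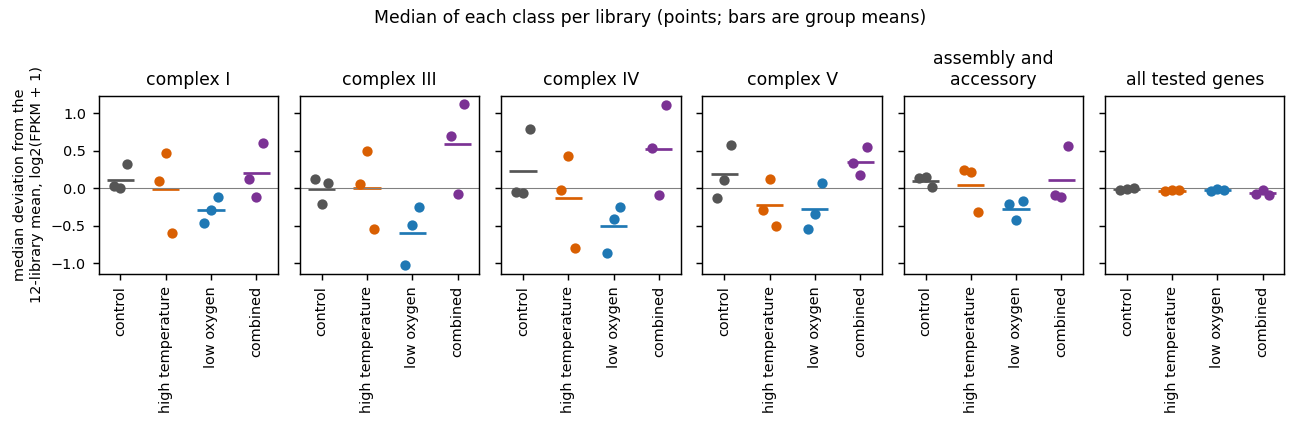
Points are the median over the genes of a class of log2(FPKM + 1) minus the 12-library mean, per library, and bars are group means. Low oxygen libraries lie below 0 in every class except complex V replicate 3, combined replicate 3 is the highest library in complexes I, III and IV and in the assembly class, and the median of all tested genes stays near 0.

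Libraries of the same group differed widely. The median deviation of the subunits from their 12-library mean was -0.01, 0.02 and 0.39 (log2) in the controls, 0.04, 0.39 and -0.58 in high temperature, -0.67, -0.36 and -0.11 in low oxygen, and 0.34, -0.06 and 0.78 in the combined group. Low oxygen was the only one of the 4 groups with all 3 libraries below 0, and high temperature replicate 3 lay as low as low oxygen. On the deposited scale, combined replicate 3 held the highest value of 35 of 75 members, against 17.0% of all genes. By share of all fragments, however, the subunits made up 0.522% there, below the 0.548% to 1.09% of the controls. No low oxygen library held the highest FPKM of any member, against 8.91%, 6.32% and 4.87% of all genes in low oxygen replicates 1, 2 and 3. The lowest values fell in high temperature replicate 3 for 21 of 75 members (6.61% of all genes) and in low oxygen replicate 1 for 18 of 75 (6.21% of all genes). NDUFA2, a peripheral arm subunit named after its values were seen, had 214 FPKM in combined replicate 1 and between 8.35 and 19.9 FPKM in the other 11 libraries.

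Subunits varied together over the libraries. The correlation of each subunit with the mean of the other subunits over 12 libraries, a description over points that share library, group and scaling, had a median of 0.84 in complex IV, 0.80 in complex III, 0.75 in complex V and 0.61 in complex I. It was 0.32 in the assembly class, and 0.01 over the other genes tested. COX6A had the highest value, 0.97, and ATPB had 0.84. The lowest values belonged to the short NDUFS5 model Chr3_610 (-0.54) and the NDUFA7 model Chr7_435 (-0.42), both secondary models, and within complex IV to NDUFA4 (-0.08). Within groups, the complex V genes varied least, with a median SD of 0.38 (log2), against 0.67 in complex IV and 0.62 over all genes.

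Transcripts of the mitochondrial genome were read beside the nuclear ones. Its scaffold had 3 models: COI, the catalytic core of complex IV, ND5 of the membrane arm of complex I, and MT-CYB, the cytochrome b of complex III. Their summed level was 37605, 14414 and 11715 FPKM in the controls, 28455, 25849 and 7439 FPKM in high temperature, 8192, 10884 and 11381 FPKM in low oxygen, and 38426, 14740 and 74042 FPKM in the combined group. It ranged 9.95-fold over the libraries, against 3.23-fold for the nuclear subunits. On the deposited scale low oxygen lay below all controls and all combined libraries, as the nuclear sum did. As a share of all fragments, the mitochondrial models made up 5.92% to 8.02% in low oxygen, 8.97% to 20.5% in the controls and 7.72% to 21.6% in the combined group, which overlapped low oxygen. The nuclear subunits made up 0.415% to 0.522% in the combined group, against 0.458% to 0.573% in low oxygen. Within the controls the genomes ran apart: replicate 1 had the highest mitochondrial and a middle nuclear sum, and replicate 3 the lowest mitochondrial and the highest nuclear sum, with ratios of 8.32 and 1.85. COI differed by -0.91 in low oxygen against control (SE 0.74, limma adjusted p = 0.855) and by 1.86 in the combined group against low oxygen (SE 0.74, limma adjusted p = 0.366), ND5 by -0.78 and 1.48, and MT-CYB by -0.61 and 1.51, all on the deposited scale, and none passed the test.

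**Figure D5:**
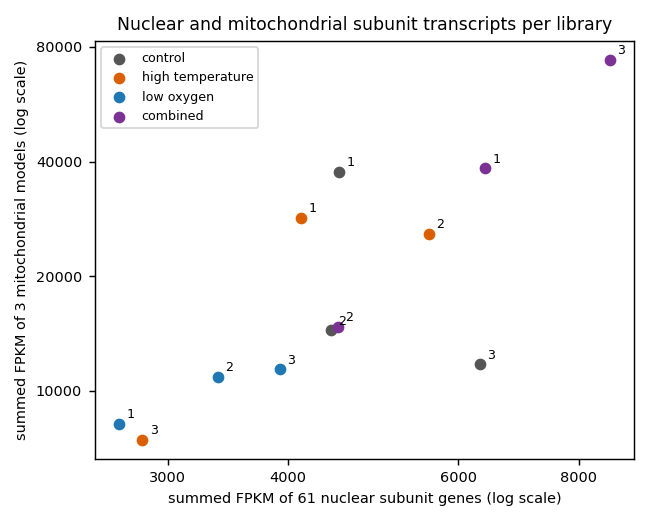
Summed FPKM of the 3 mitochondrial models against that of the 61 nuclear subunit models, both on log scales, with 1 point per library, coloured by group and numbered by replicate. The 3 low oxygen libraries and high temperature replicate 3 lie in the lower left corner, combined replicate 3 in the upper right, and control replicate 3 has a high nuclear and a low mitochondrial sum.

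The mobile and alternative parts of the chain had few genes. Cytochrome c, which carries electrons from complex III to complex IV, had 2 models, and model Chr20_564 had 22.9, 20.1 and 38.3 FPKM in the controls, 41.8, 41.3 and 34.7 FPKM in high temperature, 19.3, 14.0 and 23.2 FPKM in low oxygen and 68.9, 47.7 and 41.6 FPKM in the combined group. The combined libraries lay above all controls and all low oxygen libraries on the deposited scale, with differences of 0.96 (SE 0.36, limma adjusted p = 0.274) and 1.43 (SE 0.36, limma adjusted p = 0.181). Model Chr20_495 had 27.4, 24.2 and 65.4 FPKM in the controls and 17.5, 22.5 and 21.8 FPKM in low oxygen, a difference of -0.75 (SE 0.72, limma adjusted p = 0.874), and 49.9, 73.2 and 9.03 FPKM in high temperature and 159, 49.7 and 39.5 FPKM in the combined group.

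Complex II, the succinate dehydrogenase that feeds electrons from the citric acid cycle, had 7 models with its assembly factors, none of which passed the test, with a median difference of -0.30 in low oxygen and 0.32 in high temperature against control. Its most abundant model, SDHD-B, an anchor subunit, had 37.8 ± 11.9 FPKM in the controls, 50.6 ± 18.1 in high temperature, 27.6 ± 5.81 in low oxygen and 55.4 ± 21.3 in the combined group (SD, n = 3). These levels are on the deposited scale. By share of all fragments, the 7 models made up 0.0205% to 0.0208% in the combined group, below the 0.0212% to 0.0366% of the controls. The alternative oxidase, ALXA, an enzyme that passes electrons to oxygen without complexes III and IV and was named here after its values were seen, had 4.32, 4.12 and 2.36 FPKM in the controls, 5.69, 6.26 and 10.3 FPKM in high temperature, 11.5, 8.42 and 11.3 FPKM in low oxygen, and 15.4, 64.2 and 1.89 FPKM in the combined group. Both single conditions lay above all controls, the direction opposite to most subunits in low oxygen, with differences of 0.86 in high temperature (SE 0.81, limma adjusted p = 0.941) and 1.33 in low oxygen (SE 0.81, limma adjusted p = 0.819), and neither passed the test. SLC25A5, the ADP/ATP translocase that exports the ATP made, had 460.5 ± 30.8 FPKM in the controls, 502 ± 121 in high temperature, 397 ± 57.1 in low oxygen and 589 ± 166 in the combined group. Its higher combined level is also that of the deposited scale. By share of all fragments, the 6 models for ATP export and uncoupling made up 0.0971% to 0.139% in the combined group, below the 0.155% to 0.215% of the controls.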

How the data were processed

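RNA-seq of mRNA purified from total intestine RNA, per the labels' protocols, was analysed from 1 deposited table. The authors deposited FPKM per gene model and library. No source used here names the aligner, counter or genome build. Deposited positions and lengths of models come from the same table and from the authors' annotation. All FPKM values (100%) times model length were whole multiples of 1 fragment, within 1e-06 of a fragment, which gave 8146906 to 10855050 fragments per library. The scaling in the FPKM matched median-of-ratios size factors over 12900 genes.

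Groups follow the labels. Limma 3.58.1 (R 4.3.3, empirical Bayes with trend) was fitted to log2(FPKM + 1) of all 12 libraries with group as the only term, for genes with at least 1 FPKM in at least 3 libraries. P-values are two-sided, adjusted by Benjamini-Hochberg over all 15615 genes, and called under 0.05, and only members are printed. A permutation test of 3 against 3 libraries cannot go below 0.1, so non-overlap is given as a description. The script was tested on simulated data. Tables and plots used Python 3.11.15, numpy 2.4.6, pandas 2.3.3 and matplotlib 3.10.9.

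Members named are those called in any comparison, the most abundant of each class, those with the smallest p per class against control, those sharing a name, and those failing the filter. A gene that this rule names is not reported here, and counts over the members include it. The members and gene lists were chosen with earlier results of these data known. Alternatives changed the pseudocount, filter, scaling, weights, fit samples, replicate block and libraries, and used voom on the recovered fragments.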

Additional observations from a re-analysis of the deposited data

How the results depend on the processing

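With libraries rescaled to equal totals, the members' median difference was -0.72 for combined against control, -0.48 against high temperature, -0.27 against low oxygen, -0.25 for 26 °C against 18 °C, -0.45 for the low oxygen groups against the others and -0.042 for the interaction. Without combined replicates 1 and 3 the interaction was 0.52, combined against control turned to -0.20, 26 °C against 18 °C turned to -0.008, combined against high temperature was 0.072 and combined against low oxygen 0.34. The call of 1 member (NDUFB2) in combined against low oxygen became 0 with log2(FPKM + 0.1), without a filter, with rescaling, library weights, voom, only the groups compared, and without combined replicates 1 and 3. With 1 library left out at a time it ranged from 0 to 1, and was kept only without high temperature replicate 2 or 3 or low oxygen replicate 2. Calls in combined against control ranged from 0 to 1, with COX7A2L called without control replicate 3. ATP5PB in combined against control turned to -0.38 with rescaling and to -0.076 without combined replicates 1 and 3. The cause of these changes was not tested.

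With 1 library left out at a time, the members' median ranged from -0.36 to 0.06 for high temperature against control, from -0.60 to -0.42 for low oxygen against control, from -0.08 to 0.35 for combined against control, from 0.14 to 0.59 against high temperature, from 0.44 to 0.85 against low oxygen, from 0.09 to 0.35 for 26 °C against 18 °C, from -0.19 to 0.02 for the low oxygen groups against the others, and from 0.64 to 1.03 for the interaction. The direction turned without high temperature replicate 3 in the first, combined replicate 3 in the third, and high temperature replicate 2 in the seventh of these. Low oxygen against control stayed negative in every alternative run.

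Correlations of deviations ran from -0.17 to 0.178 over 18 pairs of libraries with equal replicate numbers (median 0.067). Over the 36 other pairs they ran from -0.37 to 0.384 (median -0.009). With 3 libraries a group these values cannot exclude a pairing. The replicate block left the call count at 1 for combined against low oxygen and the members' median at -0.45 for low oxygen against control. Leaving out combined replicates 1 and 3, summing models and all non-overlap counts under other scalings were chosen after seeing the data.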

Other observations

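Proteins of the mitochondrial ribosome, which translates the subunits encoded in the mitochondrial genome, had lower values in low oxygen as well. Of 70 models, 66 were tested and limma called 0 in low oxygen against control, as it did 0.0064% of all genes. At an unadjusted p under 0.05 there were 11 of 66, all lower, against 4.06% of all genes. The median difference was -0.51 (log2), with 20 of 66 below all controls and 1 of 66 above, against 8.66% and 7.58% of all genes. MRPL21, a large subunit protein, had the smallest p of the mitochondrial ribosomal proteins, with a difference of -1.51 (SE 0.37, limma adjusted p = 0.414). In high temperature their median was 0.01. In combined against low oxygen it was 0.28 on the deposited scale, with 13 of 66 above all low oxygen libraries, against 7.71% of all genes. The direction turned by share of all fragments, with 0.0278% to 0.0508% in the combined group and 0.0558% to 0.0669% in low oxygen.

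Models matched by names of tricarboxylic acid cycle enzymes (20 models) had a median of -0.30 in low oxygen and of -0.30 in high temperature against control. The words also caught models outside the cycle, among them the cytosolic enzymes ACLY and IDH1 and the methyltransferase CSKMT. The medians are therefore those of the whole list. Limma called 0 of the 20 in either comparison, against 0.0064% and 0.0704% of all genes. Among 5 regulators of mitochondrial genes, TFAM, which packages and transcribes the mitochondrial genome, had 6.04, 14.0 and 13.0 FPKM in the controls, 12.8, 15.2 and 6.61 FPKM in high temperature, 7.64, 5.02 and 5.55 FPKM in low oxygen and 5.05, 9.97 and 38.3 FPKM in the combined group, with overlapping groups. The regulators' median differed by 0.04 in low oxygen, that of 9 models of alternative electron paths by -0.35, and that of the 5 tested of 6 models for ATP export and uncoupling by 0.15, and none was called in low oxygen against control.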
